A study of Mus musculus with 10 samples.

Results

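The FoxO target genes described here are 10 genes known as targets of the FoxO transcription factors outside the antioxidant and cyclin-dependent kinase inhibitor groups. They are Txnip, Gadd45a, Gadd45b, Bcl2l11, Bcl6, Bbc3, Fbxo32, Trim63, Ccng2 and Pdk4. Their members were all probe sets whose platform gene symbol is one of these names, which gave 21 of the 45101 probe sets of the array and covered all 10 genes. Of the 21, 18 passed the filter on low signal and were tested, among 23761 probe sets tested in all. The 3 that did not pass were 1 of 3 for Gadd45b, 1 of 5 for Bcl2l11 and 1 of 2 for Bcl6.

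Total RNA labelled as osteoblast RNA from mice aged 2 to 3 days, on the background strain given as C5BL6, was measured on 10 Affymetrix arrays. The tested genotypes were beta-catenin constitutively expressed in osteoblasts (bcat, n = 3) and FoxO1 deleted in osteoblasts (FoxO1-deleted, n = 3), and the control was wild type (n = 4). The labels name no agent or treatment, and the sources used here do not name the promoter or Cre that makes either change osteoblast specific. Whether an array stands for a single animal, pooled animals or cultured cells is not stated, so each p-value reflects no more than the spread among these arrays, which may be technical.

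FoxO proteins are transcription factors that insulin and growth factor signalling holds in the cytoplasm through phosphorylation by Akt. When that signal falls or oxidative stress rises, they enter the nucleus and switch on genes of growth arrest, cell death, protein breakdown and fuel choice. In bone, FoxO1 is known as a FoxO member that protects osteoblasts from oxidative stress, and FoxO proteins can bind beta-catenin, the nuclear carrier of canonical Wnt signals. The comparisons ask what constitutive beta-catenin and loss of FoxO1 do to the expression of these genes in osteoblasts.

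FoxO factors bind a short DNA element whose full form is GTAAACAA and whose core is GTAAACA. Both were searched on both strands of the RefSeq promoters (250 bases before to 50 after each start, GRCm38.p6), together with CAAAACAA, a form of the insulin response sequence. The table held 13 promoters of 9 of the 10 genes, and Fbxo32 had no entry. The full element GTAAACAA was found in 3 of these 13 promoters, those of Txnip, Trim63 and 1 of 3 for Bbc3, and in 1.23% of all 32851 promoters of that length. The core GTAAACA, which lies inside the full element, was found in these and in 1 of the 2 Bcl2l11 promoters, and in 3.65% of all promoters. CAAAACAA was found in the Ccng2 promoter alone among the members, and in 2.51% of all. The genes were chosen as known FoxO targets, so these counts are a description. The stretches around the matches are shown to set the element beside the genes that hold it, with the match in capitals and each line read 5′ to 3′ in the direction of the gene.
Txnip, chr3:96557825-96557854, plus strand: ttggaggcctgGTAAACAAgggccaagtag
Trim63, chr4:134314914-134314943, plus strand: acagtctgttcTTGTTTACgacccccacgg
Bbc3, chr7:16310082-16310111, plus strand: gtctggcgggtTTGTTTACaaacaatgggg
Bcl2l11, chr2:128125800-128125828, plus strand: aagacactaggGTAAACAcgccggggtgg
Ccng2, chr5:93267546-93267575, plus strand: cgtcgcagactCAAAACAAaaacaaggggt

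The first base of the match, on the gene's own strand, lies 121 bases before the start for Txnip, 195 for Trim63, 168 for Bbc3, 227 for Bcl2l11 and 16 for Ccng2. In Trim63 and Bbc3 the element runs on the opposite strand, so it reads TTGTTTAC there. A match is a description of these letters and not a binding site.

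The whole promoters of Txnip and Pdk4 are shown because in these 2 genes every bcat array lay above every other array. Capitals mark the element GTAAACAA in Txnip. The window of Pdk4 held none of the 3 sequences searched.
Txnip, chr3:96557707-96558006, plus strand: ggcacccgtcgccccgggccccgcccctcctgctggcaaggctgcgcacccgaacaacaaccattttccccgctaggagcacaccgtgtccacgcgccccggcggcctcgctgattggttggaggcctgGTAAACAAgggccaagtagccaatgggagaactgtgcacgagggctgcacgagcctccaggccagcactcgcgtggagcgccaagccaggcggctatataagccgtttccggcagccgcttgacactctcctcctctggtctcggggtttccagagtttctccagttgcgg
Pdk4, chr6:5496229-5496528, minus strand: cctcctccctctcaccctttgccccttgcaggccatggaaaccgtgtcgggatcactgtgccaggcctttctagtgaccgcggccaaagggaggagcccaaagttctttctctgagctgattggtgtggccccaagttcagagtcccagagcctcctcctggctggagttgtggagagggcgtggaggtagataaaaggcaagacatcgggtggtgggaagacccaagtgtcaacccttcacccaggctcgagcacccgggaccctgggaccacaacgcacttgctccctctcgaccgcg

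Several facts of the whole series bear on the values. Wild type 1 and 2, and wild type 3 and 4, were pairs of closely similar arrays (Pearson's r 0.989 and 0.988 over the tested probe sets, against 0.971 to 0.972 between the pairs), so the wild-type group may hold less independent information than its 4 arrays. The signal of Xist, the RNA that coats the inactive X in females, was 5.91 to 7.06 in bcat arrays. FoxO1-deleted 2 and 3 and wild type 3 and 4 had 14.05 to 14.43, and the remaining arrays had 7.29 to 8.96, and the labels leave sex undetermined. The Y-linked gene Eif2s3y ran opposite to Xist, at 10.78 to 11.29 in all bcat arrays, FoxO1-deleted 1 and wild type 1 and 2, and at 2.84 to 4.34 in the other 4 arrays. By these genes all bcat arrays were male, and the other groups held both sexes. Wild type 1 and 2 were male and wild type 3 and 4 female, so pair and sex cannot be told apart in wild type. As a sign of RNA quality, the log2 signal of the 3′ Actb control probe set exceeded that of the 5′ one by 0.85 to 0.88 in bcat arrays, 0.80 to 0.99 in FoxO1-deleted arrays and 0.60 to 0.77 in wild-type arrays. Of 8 osteoblast markers listed, 5 were measured, all above the table's median of 7.15 in each group (Col1a1 at 15.19 in bcat, 15.18 in FoxO1-deleted and 15.11 in wild type), and 0 of the 5 passed the test in any comparison. Defining genes of other cells were also measured, such as Acta1 of skeletal muscle (14.87, 14.92 and 14.64 in the same order) and Csf1r of macrophages (13.46, 13.22 and 13.33). In such bulk samples, fewer cells of a type and less RNA per cell cannot be told apart.

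The targeted gene was checked first. Foxo1 has 3 tested probe sets. The one with the highest mean gave 9.80, 10.13 and 9.67 in FoxO1-deleted arrays, against 10.09, 10.08, 9.93 and 10.05 in wild-type arrays, a log2 difference of -0.17 ± 0.11 (SE, limma adjusted p = 0.729). The others differed by 0.05 and 0.10. The sources used here do not name the deleted part of the gene, and a probe set outside the deleted part checks nothing, so these values do not check the labels. The same holds for Ctnnb1, which encodes beta-catenin and whose 3 probe sets gave log2 differences of -0.03, -0.28 and -0.34 in bcat against wild type (lowest limma adjusted p = 0.103).

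Among the FoxO targets, constitutive beta-catenin went with higher signal of Txnip, a protein that inhibits thioredoxin and limits glucose uptake, and of Pdk4, a kinase that shuts the entry of pyruvate into mitochondrial oxidation. Every bcat array lay above every other array of the series for both Txnip probe sets and for Pdk4. None of these differences from wild type passed the test over all probe sets, and 1 Txnip probe set passed it in bcat against FoxO1-deleted. With FoxO1 deleted, 0 member probe sets passed, and neither Txnip nor Pdk4 lay apart from wild type.

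**Figure D1:**
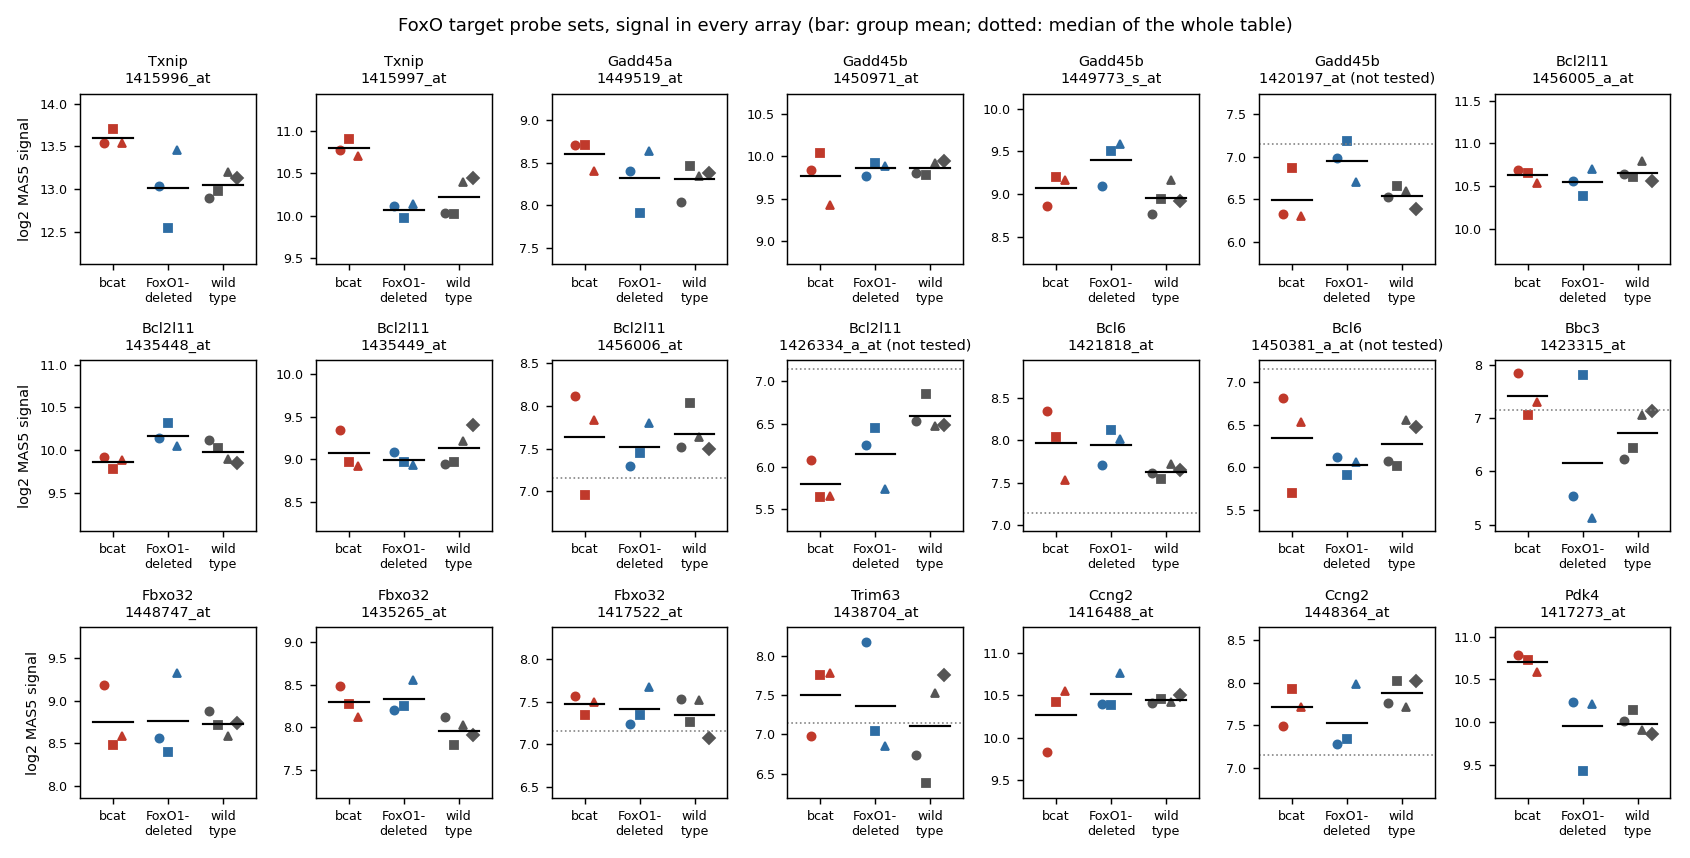
Log2 MAS5 signal (y axes, which differ between panels) of each of the 21 probe sets in every array, by genotype (circle, square, triangle and diamond are replicates 1 to 4, the bar is the group mean). The bcat arrays stand above all other arrays for Txnip and Pdk4, while most other panels show groups that overlap.

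Txnip was measured by 2 probe sets, and signal is given as log2 MAS5 signal throughout. Probe set 1415996_at was at 13.54, 13.70 and 13.54 in bcat arrays, at 13.03, 12.54 and 13.46 in FoxO1-deleted arrays, and at 12.89, 12.97, 13.20 and 13.13 in wild-type arrays. All bcat arrays were above all others, of which FoxO1-deleted 3 came closest, and the FoxO1-deleted arrays were the most widely spread. Probe set 1415997_at was at 10.77, 10.90 and 10.70 in bcat arrays, at 10.11, 9.97 and 10.14 in FoxO1-deleted arrays, and at 10.03, 10.02, 10.40 and 10.44 in wild-type arrays. Here the wild-type arrays fell into their pairs, which also differ in sex by Xist and Eif2s3y. Wild type 1 and 2 were level with the FoxO1-deleted arrays, and wild type 3 and 4 lay between these and the bcat arrays.

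Against wild type, Txnip was 1.46-fold higher in bcat by the first probe set (log2 difference 0.55 ± 0.17, SE, limma adjusted p = 0.213) and 1.48-fold higher by the second (0.57 ± 0.12, adjusted p = 0.0795). Group means for the second were 10.79 ± 0.10 in bcat (SD, n = 3) and 10.22 ± 0.23 in wild type (SD, n = 4). Against FoxO1-deleted, whose mean was 10.07 ± 0.09 (SD, n = 3), the second probe set was 1.64-fold higher in bcat (0.72 ± 0.13, adjusted p = 0.0381). This was the member call of that comparison, and the first probe set differed by 0.58 ± 0.18 (adjusted p = 0.366). That value was 0.35 without FoxO1-deleted 2 (adjusted p = 0.464) and 0.81 without FoxO1-deleted 3, where it passed (adjusted p = 0.0489). In FoxO1-deleted against wild type the log2 differences of Txnip were -0.04 and -0.15, with 95% intervals of -0.41 to 0.33 and -0.41 to 0.12.

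The Txnip call depended on the processing. It kept its side of the threshold in 7 of 22 other settings and was lost without wild type 3 (adjusted p = 0.0504), without any 1 bcat array or any 1 FoxO1-deleted array (0.0815 to 0.171), while its log2 difference stayed between 0.66 and 0.90. Within the arrays of low Xist signal alone, which hold bcat 1 to 3, FoxO1-deleted 1 and wild type 1 and 2, the Txnip differences from wild type were 0.66 and 0.765 (limma adjusted p = 0.0219 and 0.0251), but wild type there is 1 pair of similar arrays, and this subset was chosen after seeing the data. With Xist signal as a covariate over all arrays the same differences were 0.63 and 0.71 and did not pass (adjusted p = 0.405 and 0.140). Pdk4 differed from wild type by 0.63 in the low-Xist arrays (adjusted p = 0.0520) and by 0.52 with the covariate (adjusted p = 0.468), and from FoxO1-deleted by 0.47 and 0.50 (adjusted p = 0.576 and 1.00).

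Pdk4 was at 10.79, 10.73 and 10.59 in bcat arrays, at 10.23, 9.43 and 10.21 in FoxO1-deleted arrays, and at 10.01, 10.14, 9.90 and 9.86 in wild-type arrays. The bcat arrays did not overlap with either group, and FoxO1-deleted 2 was the lowest array of the series, as it was for both Txnip probe sets. Means were 10.70 ± 0.10 in bcat, 9.96 ± 0.46 in FoxO1-deleted and 9.98 ± 0.13 in wild type (SD). Pdk4 was 1.65-fold higher in bcat than in wild type (log2 difference 0.73 ± 0.17, SE, limma adjusted p = 0.106) and 1.68-fold higher than in FoxO1-deleted (0.75 ± 0.18, 95% interval 0.35 to 1.15, adjusted p = 0.187). Without FoxO1-deleted 2 the difference of Pdk4 from wild type stayed at 0.73. The SE of the shared fit fell from 0.17 to 0.09, and the test passed (limma adjusted p = 0.00834). With only bcat and wild type in the fit, the SE was 0.10 and Pdk4 passed (adjusted p = 0.0117). So did Txnip 1415996_at (0.0282), while 1415997_at did not (0.0797). The log2 difference of Pdk4 from FoxO1-deleted was 0.48 without FoxO1-deleted 2. The difference of FoxO1-deleted from wild type was -0.02, with an interval of -0.40 to 0.35.

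Marker scores of several other cell types did not overlap between bcat and wild type. The part of these cells in the Txnip and Pdk4 values was not tested. The score of 4 tested erythroid markers (of 6), the mean log2 deviation from the mean over all arrays, was -2.08 to -0.80 in bcat, -1.28 to 1.32 in FoxO1-deleted and 0.52 to 1.74 in wild type. That of 5 endothelial markers was 0.15 to 0.22 in bcat, -0.06 to 0.04 in FoxO1-deleted and -0.20 to -0.03 in wild type, and that of 5 chondrocyte markers was -0.13 to 0.46, -0.10 to 1.21 and -0.88 to -0.20 in the same order. No gene of these lists passed the test, while Thy1, 1 of 5 fibroblast and smooth muscle markers, was higher in bcat than in wild type (0.91, limma adjusted p = 0.0449). The score of these 5 was 0.09 to 0.24 in bcat, -0.13 to 0.07 in FoxO1-deleted and -0.24 to 0.02 in wild type, so it too was higher in every bcat array than in any other. That of 4 tested osteoclast markers (of 5) overlapped between the groups, at -0.17 to 0.08, -0.68 to 0.08 and -0.14 to 0.48 in the same order.

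The counts over all probe sets stand beside these values. In bcat against wild type, 0 of 18 member probe sets passed limma's test, where 0.45% of all tested probe sets passed, and 4 had an unadjusted p under 0.05, where 11.1% of all did. Those 4 were both Txnip probe sets, Pdk4 and 1 of 3 for Fbxo32. Without overlap between the groups, 3 of 18 were higher (6.42% of all) and 0 of 18 were lower (6.51% of all). In bcat against FoxO1-deleted, 1 of 18 passed (0.404% of all), 4 had an unadjusted p under 0.05 (7.65% of all), and 3 were higher and 1 lower without overlap (5.4% and 4.18% of all). The median log2 difference of the 18 was 0.13 in bcat against wild type and 0.08 in bcat against FoxO1-deleted, where the medians of all tested probe sets were 0.00 and 0.01. In absolute size the medians were 0.17 and 0.16 for the 18, beside 0.13 and 0.12 over all tested probe sets. Several of the 18 measure the same gene, so they are not independent values.

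**Figure D2:**
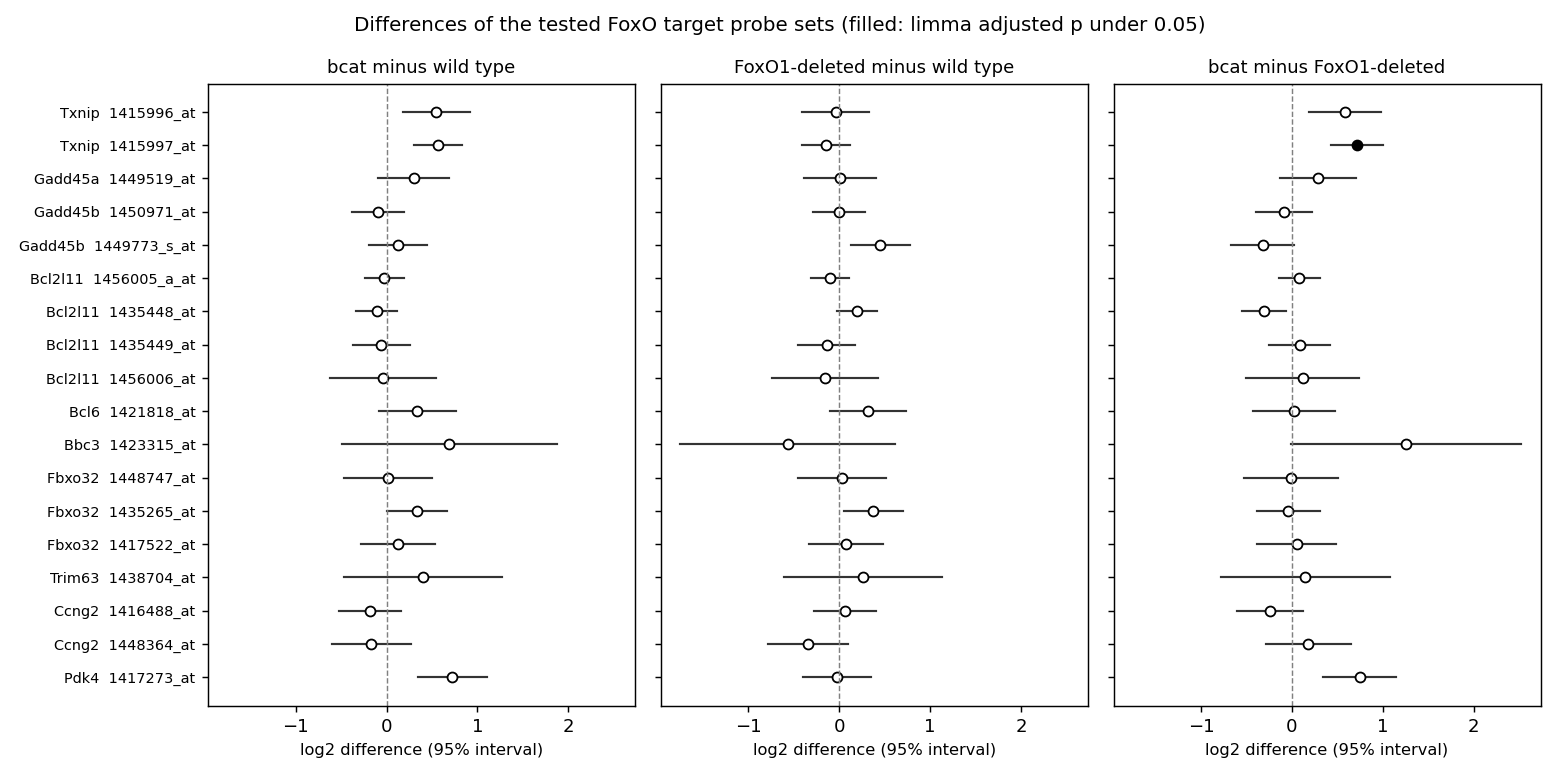
Log2 difference (x axis) and 95% interval of each of the 18 tested probe sets in the 3 comparisons, with filled points where the limma adjusted p was under 0.05. A single point is filled, that of Txnip 1415997_at in bcat minus FoxO1-deleted, and the widest intervals are those of Bbc3 and Trim63.

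With FoxO1 deleted, 0 of the 18 probe sets passed limma's test against wild type, where 0.0168% of all passed. An unadjusted p under 0.05 was found for 2 of 18 (7.92% of all), and without overlap 1 was higher (4.39% of all) and 0 lower (4.82% of all). The median log2 difference of the 18 was 0.00, beside -0.01 over all tested probe sets. The differences ran from -0.57 for Bbc3 to 0.45 for a Gadd45b probe set. For 16 of the 18 the 95% interval lay within a 2-fold change in either direction, so a larger change of these probe sets would lie outside their intervals, while for Bbc3 and Trim63 the intervals reached beyond it. The same count was 15 of 18 in bcat against wild type and 14 of 18 in bcat against FoxO1-deleted.

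The growth arrest and DNA damage genes gave small differences. Gadd45a, which is induced by DNA damage and arrests the cell cycle, was at 8.71, 8.70 and 8.40 in bcat arrays, at 8.40, 7.91 and 8.63 in FoxO1-deleted arrays, and at 8.04, 8.46, 8.34 and 8.38 in wild-type arrays. The groups overlapped, with log2 differences from wild type of 0.30 ± 0.18 in bcat (limma adjusted p = 0.603) and 0.01 ± 0.18 in FoxO1-deleted (adjusted p = 0.995). Ccng2, an unconventional cyclin of quiescent cells, differed from wild type by -0.18 and -0.17 in bcat and by 0.06 and -0.35 in FoxO1-deleted over its 2 probe sets. In the first of these the bcat group held 1 array apart, bcat 1 at 9.83, while every other array of the series was between 10.38 and 10.76.

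Gadd45b, a stress and cytokine response relative of Gadd45a, had probe sets that did not move together. Probe set 1449773_s_at was at 9.10, 9.51 and 9.59 in FoxO1-deleted arrays, against 8.77, 8.94, 9.17 and 8.92 in wild-type arrays. FoxO1-deleted 2 and 3 lay above all wild-type arrays and FoxO1-deleted 1 did not, and the log2 difference was 0.45 ± 0.15 (limma adjusted p = 0.508). Bcat arrays were at 8.86, 9.20 and 9.17, 0.13 ± 0.15 from wild type (adjusted p = 0.834). The brighter probe set, 1450971_at, was at 9.77, 9.92 and 9.89 in FoxO1-deleted arrays, against 9.80, 9.78, 9.92 and 9.94 in wild-type arrays, a log2 difference of 0.00. The third, 1420197_at, was under the table's median in 9 of 10 arrays and not tested, and its FoxO1-deleted arrays (6.70 to 7.18) lay above its wild-type arrays (6.39 to 6.65).

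The cell death genes did not pass in any comparison. Bcl2l11, which encodes the pro-apoptotic protein Bim, had 4 tested probe sets, whose log2 differences from wild type ran from -0.11 to -0.02 in bcat and from -0.16 to 0.20 in FoxO1-deleted. Its probe set 1435448_at was at 9.92, 9.78 and 9.88 in bcat arrays, against 10.14, 10.32 and 10.04 in FoxO1-deleted arrays, so every bcat array was lower (-0.31 ± 0.11, limma adjusted p = 0.486). The other 3 differed by 0.08 to 0.12 in the same comparison, the opposite sign. The fifth probe set, 1426334_a_at, was under the table's median in all 10 arrays and was not tested. It stood at 6.08, 5.64 and 5.65 in bcat arrays and 6.25, 6.45 and 5.74 in FoxO1-deleted arrays, against 6.54, 6.85, 6.48 and 6.49 in wild-type arrays, so both mutant groups lay below wild type at a signal level where sizes are inexact.

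Bbc3, which encodes the p53-induced death protein Puma, had the widest range of all members over the 10 arrays, 2.73 on the log2 scale. It was at 7.85, 7.07 and 7.31 in bcat arrays, at 5.53, 7.81 and 5.12 in FoxO1-deleted arrays, and at 6.24, 6.44, 7.06 and 7.14 in wild-type arrays. FoxO1-deleted 1 and 3 were the lowest arrays of the series and FoxO1-deleted 2 the second highest. Only 3 arrays were above the table's median, the fewest with which a probe set could be tested, so its differences are inexact. They were 0.69 ± 0.54 in bcat and -0.57 ± 0.54 in FoxO1-deleted against wild type (limma adjusted p = 0.718 and 0.831), and leaving out 1 array moved the second between -1.40 (without FoxO1-deleted 2, adjusted p = 0.300) and -0.05 (without FoxO1-deleted 3, adjusted p = 0.992).

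Bcl6, a transcriptional repressor known from germinal centre B cells and a FoxO target in lymphoid and leukaemia cells, was at 8.34, 8.04 and 7.53 in bcat arrays, at 7.71, 8.12 and 8.01 in FoxO1-deleted arrays, and at 7.61, 7.54, 7.72 and 7.65 in wild-type arrays. In each mutant group 2 of 3 arrays lay above all wild-type arrays, and the log2 differences were 0.34 ± 0.19 in bcat (limma adjusted p = 0.573) and 0.32 ± 0.19 in FoxO1-deleted (adjusted p = 0.712). Leaving out 1 array moved the bcat value between 0.16 (without bcat 1) and 0.56 (without bcat 3). Its other probe set, 1450381_a_at, was under the table's median in all 10 arrays and was not tested, with 5.70 to 6.81 in bcat arrays, 5.91 to 6.12 in FoxO1-deleted arrays and 6.02 to 6.56 in wild-type arrays, which overlapped. Of 9 leukocyte and macrophage markers, 7 were tested, 0 passed in either comparison, and their median log2 differences were -0.29 in bcat and -0.11 in FoxO1-deleted.

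Fbxo32 (atrogin-1) and Trim63 (MuRF1) encode ubiquitin ligases that drive protein breakdown in wasting skeletal muscle. For Fbxo32, probe set 1435265_at was at 8.49, 8.28 and 8.12 in bcat arrays, at 8.20, 8.25 and 8.56 in FoxO1-deleted arrays, and at 8.12, 7.79, 8.03 and 7.91 in wild-type arrays. Every FoxO1-deleted array was above every wild-type array, and bcat 3 equalled wild type 1. The log2 differences from wild type were 0.33 ± 0.15 in bcat (limma adjusted p = 0.438) and 0.37 ± 0.15 in FoxO1-deleted (adjusted p = 0.585). The other 2 probe sets of Fbxo32 differed by 0.02 and 0.13 in bcat and by 0.03 and 0.07 in FoxO1-deleted. The larger differences, which did not pass, thus came from 1 of 3 probe sets.

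Trim63 varied more within each genotype than between them. It was at 6.98, 7.76 and 7.78 in bcat arrays, at 8.18, 7.05 and 6.85 in FoxO1-deleted arrays, and at 6.74, 6.38, 7.53 and 7.76 in wild-type arrays. The wild-type arrays were split by their pairs, which also differ in sex by Xist and Eif2s3y, by 1.09 on the log2 scale. The differences from wild type were 0.40 ± 0.40 in bcat and 0.26 ± 0.40 in FoxO1-deleted (limma adjusted p = 0.791 and 0.905). Leaving out 1 array moved the bcat value between 0.16 (without wild type 2) and 0.67 (without bcat 1), and the FoxO1-deleted value between -0.15 (without FoxO1-deleted 1) and 0.51 (without FoxO1-deleted 3). A score of 10 skeletal muscle markers, the mean log2 deviation of each gene from its mean over all arrays, was -0.60, 0.72 and 0.27 in bcat arrays, 0.56, -0.45 and 0.03 in FoxO1-deleted arrays, and -0.71, -0.70, 0.49 and 0.40 in wild-type arrays. The 5 arrays with the highest scores were the 5 with the highest Trim63 signal. The part of muscle RNA in the Trim63 values was not tested.

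All 10 muscle markers were measured, 0 passed in any comparison, and their summed linear signal was 55500 to 124000 in bcat, 61300 to 116000 in FoxO1-deleted and 51600 to 108000 in wild type. Pdk4 is also strongly expressed in muscle, and the part of muscle RNA in its values was not tested. FoxO1-deleted 2, the lowest array for Pdk4, had the lowest muscle score of its group, while bcat 1, the highest array for Pdk4, also had the lowest of its group. Of 5 adipocyte markers, 2 were tested and gave a score of -0.53, 0.78 and 0.18 in bcat arrays, 0.56, -0.63 and 0.31 in FoxO1-deleted arrays, and -0.25, -0.15, -0.17 and -0.11 in wild-type arrays.

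**Figure D3:**
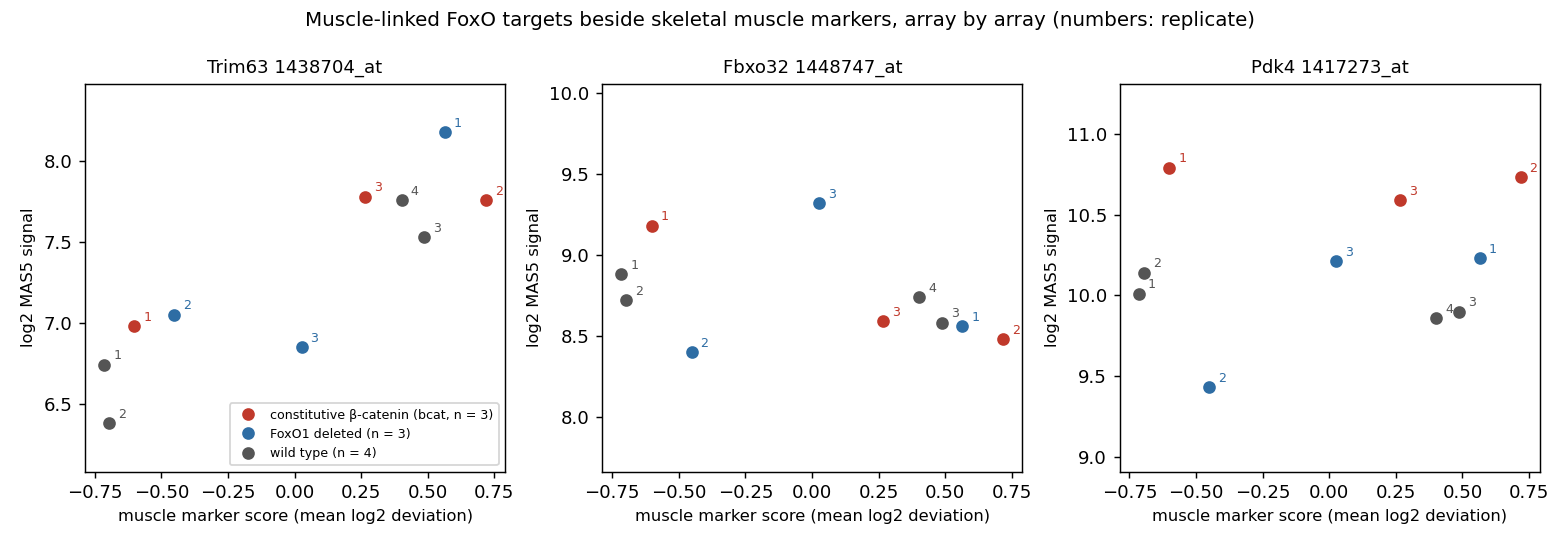
Log2 MAS5 signal of Trim63, Fbxo32 and Pdk4 (y axes) against the skeletal muscle marker score (x axis, mean log2 deviation) in each array, coloured by genotype and numbered by replicate. Trim63 is high in the 5 arrays with the highest muscle scores whatever their genotype. Fbxo32 does not follow the score: FoxO1-deleted 3 (9.32, score 0.03) and bcat 1 (9.18, score -0.60) are its highest arrays. It is at 8.48 in bcat 2, the array with the highest score (0.72). For Pdk4 the 3 bcat arrays are the highest, at scores of -0.60 to 0.72, and FoxO1-deleted 2 is the lowest, at -0.45.

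The genes whose signal over the 10 arrays was most like that of the widest-ranging members were looked up among probe sets with 1 gene, with Pearson's r as the measure and no test. For Trim63 they were Tmem38a (r = 0.967), Cacnb1 (0.964) and Pygm (0.960), which are known from skeletal muscle as a membrane channel of the sarcoplasmic reticulum, a calcium channel subunit and the muscle glycogen phosphorylase. For Bbc3 they were Rnf11 (0.954), Pdcl (0.949) and Mier2 (0.947). These values are the highest over all tested probe sets with 1 gene, from arrays that share genotypes and wild-type pairs.

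Other FoxO pathway genes were taken from lists, each gene by its tested probe set with the highest mean. Of 15 FoxO factors and genes of insulin and Akt input, 13 were tested and 1 passed in 1 comparison. This was Sgk1, a kinase that phosphorylates FoxO proteins, at 11.12 in bcat against 10.50 in FoxO1-deleted (log2 difference 0.62, limma adjusted p = 0.0136) and 10.75 in wild type (0.36, adjusted p = 0.0948). Sgk1 was also lower in FoxO1-deleted than in wild type, by -0.26 (limma adjusted p = 0.497), so the called difference holds a part from each group. Irs1, the insulin receptor substrate, differed by 0.39 in bcat against wild type (adjusted p = 0.0725). Of 6 cyclin-dependent kinase inhibitor and cell cycle exit targets, Cdkn1a (p21) alone passed, at 12.65 in bcat, 11.79 in FoxO1-deleted and 11.72 in wild type, and it was higher in bcat against both. With Xist signal as a covariate, 0 of all probe sets passed in bcat against FoxO1-deleted, so the Sgk1 and Cdkn1a calls there were lost. In bcat against wild type 13 of all passed, in place of 107, and list genes were not followed singly through the settings.

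In the remaining FoxO target lists 0 genes passed limma's test in any comparison. These were 9 tested antioxidant targets, 9 tested metabolic and autophagy targets and 4 tested cell death and trafficking targets, with median log2 differences from wild type of -0.12, 0.03 and 0.04 in bcat and -0.08, 0.09 and 0.01 in FoxO1-deleted. The smallest p-values among them in FoxO1-deleted against wild type were those of Gpx1, a glutathione peroxidase (-0.39, adjusted p = 0.323), Ctsl, a lysosomal protease (0.24, adjusted p = 0.666), and Tnfsf10, the death ligand TRAIL (0.89, adjusted p = 0.619). Of 18 relatives of the members, 15 were tested and 0 passed. Arrdc4, an arrestin relative of Txnip, differed by 0.20 ± 0.38 in bcat against wild type (adjusted p = 0.908), and Pdk1, Pdk2 and Pdk3, relatives of Pdk4, differed by -0.05, 0.26 and -0.20 in the same comparison (lowest adjusted p = 0.615).

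**Figure D4:**
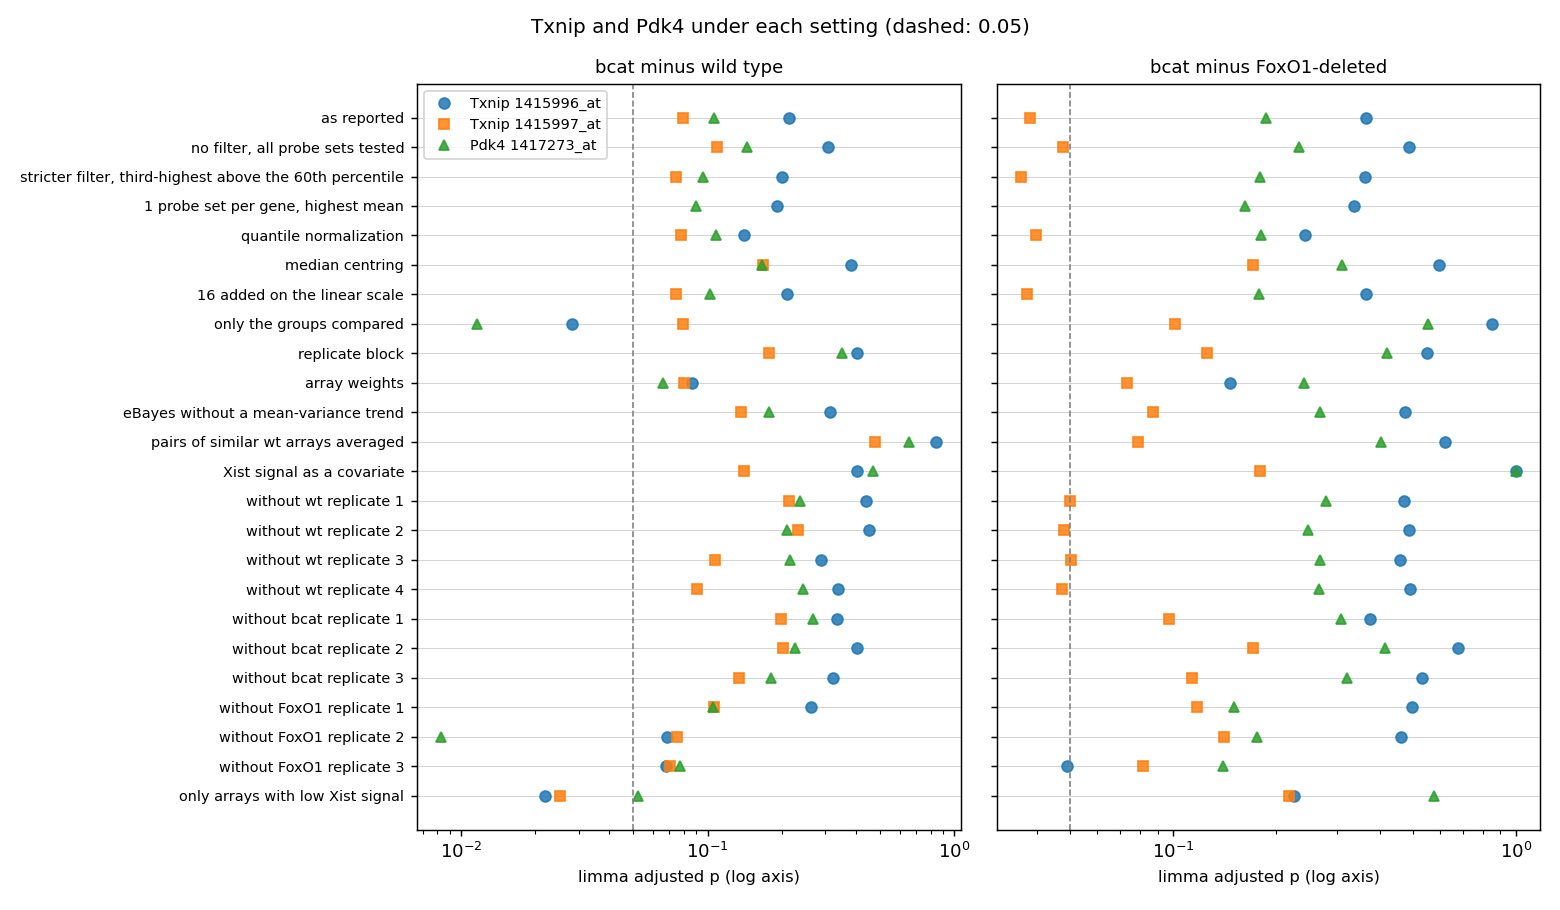
Limma adjusted p (x axes, log scale) of both Txnip probe sets and of Pdk4 under each way of processing the data and without each array (y axis), for bcat minus wild type and bcat minus FoxO1-deleted. Most points lie to the right of the dashed line at 0.05, and the Txnip 1415997_at points on its left in the right panel are the 7 settings in which the call held plus the value as reported.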

How the data were processed

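The deposited values are log2 signals of 45101 probe sets on 10 arrays. Per the submitters' processing notes the authors used MAS5, with no version given, and the linear trimmed mean of each array was about 500. Per the labels' protocols, 500 ng of total RNA was labelled per array. Groups came from the genotype labels. The number of arrays limits the precision.

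A probe set was tested where its third-highest value was above the table's median of 7.15, with 64 control probe sets left out. One limma 3.58.1 model (R 4.3.3) with a mean-variance trend was fitted to all groups, and p-values were Benjamini-Hochberg adjusted over 23761 probe sets, with a threshold of 0.05. Intervals are 95%. The fit was also run on simulated data with independent noise in each array. Those data lacked the wild-type pairs and the Xist split, so they do not check the p-values for either. Gene names came from the platform table, where 34958 probe sets have 1 gene, 932 several and 9211 none listed. Both comparisons against wild type share the wild-type arrays, so their values are only set side by side. Signals of different probe sets are not compared as levels. All members are named, with list genes named by call, by smallest p or as relatives. Members and lists were chosen with earlier results of these data known. Filter, scaling, offset, model, replicate block and single arrays were varied.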

Additional observations from a re-analysis of the deposited data

Results flagged for a closer look

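Of the 21 member probe sets, each examined in the 4 wild-type arrays, 1 had an array far from the others. Bcl2l11 probe set 1426334_a_at was at 6.85 in wild type 2, against 6.54 in the nearest array, a gap of 0.838 of the group's range, just past the 95% limit of Dixon's test for 4 samples. Chance alone gives such a gap in about 1 of 20 groups, and the probe set was below the table's median in every array.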

How the results depend on the processing

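Of 1224 recomputed member differences, 1125 kept their direction and side of the threshold, 15 lost a call, 6 gained one, 0 called values reversed, and 78 that passed in neither setting changed sign. In bcat against wild type, 2 member probe sets passed with only the groups compared (Txnip 1415996_at and Pdk4) and 2 with only low-Xist arrays (both Txnip), an alternative chosen after seeing the data. The low-Xist arrays hold 1 FoxO1-deleted array, which is assumed to vary like the other groups, so their counts for FoxO1-deleted rest on that array. Leaving out 1 array gave 0 to 1 (Pdk4 without FoxO1-deleted 2). In bcat against FoxO1-deleted, the 1 call became 0 with 1 probe set per gene, median centring, only the groups compared, the replicate block, array weights, no variance trend, averaged wild-type pairs, Xist as a covariate or low-Xist arrays only (2 to 5 at an unadjusted p under 0.05 by limma), and the count was 0 to 1 without single arrays. Without FoxO1-deleted 3 the 1 call was another probe set, Txnip 1415996_at (adjusted p = 0.0489), and 1415997_at was lost (0.0815). FoxO1-deleted against wild type gave 0 members in every setting run.

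Over all probe sets, bcat against wild type gave 107 calls, and 170 with only the groups compared, 20 with the replicate block, 56 without a variance trend, 11 with wild-type pairs averaged, 13 with Xist as a covariate, 218 with low-Xist arrays and 38 to 131 without single arrays (38 without wild type 2). FoxO1-deleted against wild type gave 4, and 2 with no filter, 10 with 16 added, 1 with only the groups compared, 0 with the block (1287 unadjusted), 86 with array weights, 8 without a trend, 0 with pairs averaged (749 unadjusted), 139 with low-Xist arrays, 0 with high-Xist arrays (1980 unadjusted) and 0 to 8 without single arrays (0 without wild type 2 or FoxO1-deleted 3, 1339 and 1663 unadjusted). Of its 4 calls 2 were higher, and 3 of 4 under median centring. Bcat against FoxO1-deleted gave 96, and 19 with only the groups compared, 26 with the block, 29 with pairs averaged, 0 with Xist as a covariate (1031 unadjusted), 14 with low-Xist arrays and 32 to 80 without single arrays (32 without FoxO1-deleted 1). The cause was not tested. Replicate numbers gave no sign of pairing: deviations of same-numbered arrays correlated at -0.25 to 0.22, over 0.1 in 1 of 9 pairs. Those of differently numbered arrays correlated at -0.24 to 0.26, over 0.1 in 7 of 24 pairs. This check cannot show whether arrays shared a litter or batch.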
